A study of Mus musculus with 8 samples.

Results

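The transcription factor p53, encoded by Trp53, and 9 of its target genes were followed in mouse liver: Mdm2, Ccng1, Gadd45a, Perp, Phlda3, Aen, Trp53inp1, Sesn1 and Zmat3. The members, and the gene lists set beside them below, were chosen by gene symbol with earlier results of these data known. All 10 members had a row among the 22052 genes of the deposited table. The dKO group was 4 adult male C57BL/6 mice in which both Zfp36l1 and Zfp36l2 are floxed and a Cre recombinase under the albumin promoter (Alb-Cre) deletes them, which in adult liver acts mainly in hepatocytes. The control group was 4 males of the same strain and age with the same floxed alleles and no Cre. All 8 mice were 8 weeks old and had received corn oil into the peritoneum, and each library is the whole liver of 1 numbered mouse. The RNA of other liver cells is therefore measured as well, and which of those cells carry the deletion was not tested.

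p53 is held low in unstressed cells by MDM2, a ubiquitin ligase that marks it for destruction and whose own gene p53 switches on. DNA damage and other stress stabilise the p53 protein, which then binds response elements in the promoters or first introns of target genes that arrest the cell cycle, repair DNA, alter metabolism or kill the cell. Most control of p53 is on the protein, so the level of Trp53 RNA is not a measure of its activity. ZFP36L1 and ZFP36L2 promote the decay of mRNAs whose 3' untranslated regions (UTRs) carry AU-rich elements, to which they bind.

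The short sequence that this protein family binds, TATTTAT, is shown first, because 4 of the 10 genes carried it in an annotated 3' UTR (Mdm2, Ccng1, Trp53inp1 and Gadd45a). Each site is printed 5' to 3' with up to 10 bases on either side and the heptamer in capitals, from GENCODE release M21 transcripts on GRCm38, the assembly that mm10 names.
Mdm2, chr10:117688916-117688942, minus strand: gcattgatgtTATTTATttgcaaataa
Ccng1, chr11:40749078-40749104, minus strand: tctgaaaatgTATTTATtgcactaaag
Trp53inp1, chr4:11171740-11171766, plus strand: cttcccctttTATTTATttgttttcta
Trp53inp1, chr4:11172066-11172092, plus strand: ccaccacattTATTTATcccttaagta
Gadd45a, chr6:67035138-67035164, minus strand: tgtgaaaggtTATTTATgataaagttt
The heptamer was in the 3' UTRs of 30.1% of the 15413 tested protein-coding genes with an annotated 3' UTR. The share was 33.1% among those that rose in dKO livers, 26.7% among those that fell and 29.9% among those not called. The shorter pentamer ATTTA, which every TATTTAT contains, was in those of 8 of the 10 genes, all except Phlda3 and Aen, and in 69.1% of the tested genes. UTR length differed widely, with 6692 bases in the longest annotated 3' UTR of Zmat3, which held no TATTTAT, and 563 bases in that of Gadd45a, which held 1. The 4 genes with the heptamer comprised 2 that fell in dKO livers (Ccng1 and Trp53inp1) and 2 that were not called (Mdm2 and Gadd45a), as described below for each gene. The only gene of the 10 that rose, Phlda3, held neither motif in its 727-base 3' UTR.

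The p53 response element, a pair of decamers with a short gap or none, was searched in RefSeq promoter windows (GRCm38.p6) from 250 bases before to 50 bases after a gene's start. A gap of up to 13 bases and up to 2 mismatches over both decamers were allowed, with none at the fixed C and G of either. The element reads alike on both strands, so 1 search covers both, and matches may overlap. Windows were matched for 7 of the 10 genes (all but Perp, Trp53inp1 and Zmat3), and 3 of them held a match, printed here on the strand of the gene with the decamers in capitals.
Ccng1, chr11:40755462-40755481, minus strand, 1 mismatch: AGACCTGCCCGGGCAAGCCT
Sesn1, chr10:41887253-41887275, plus strand, 2 mismatches: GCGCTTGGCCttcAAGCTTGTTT
Gadd45a, chr6:67037438-67037463, minus strand, 2 mismatches: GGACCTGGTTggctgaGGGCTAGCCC
Each of the 3 windows held a second match that overlapped the one shown. Among all 27025 genes with a window, 4.71% held a match at up to 2 mismatches and 0.718% at up to 1 mismatch. A match is a description of the letters, and the absence of one covers this window alone.

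Reads assigned to genes numbered 17273389 to 19299556 per library in dKO and 15253827 to 17745944 in controls. The mitochondrial genome's share of all values was 3.09% to 3.70% in dKO livers and 4.06% to 4.74% in controls. The deleted genes were lower as labelled, with Zfp36l1 at 16.5% of its mean in controls (log2 change -2.60, SE 0.11, limma adjusted p = 1.7e-08) and Zfp36l2 at 50.3% (log2 change -0.96, SE 0.17, limma adjusted p = 0.00069). On the first principal component control 4 scored -43.3, between the dKO livers (57.5 to 68.9) and the other controls (-76.5 to -67.7). Levels below are normalised read counts, that is, gene reads after the authors' division by a size factor for each library. Changes are dKO minus control on the log2(value + 0.5) scale, tested with limma over 20055 genes, and a gene is said to rise or fall where its Benjamini-Hochberg adjusted p is under 0.05.

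Of p53 and its 9 targets, 1 rose and 3 fell in dKO livers, while 38.2% of all tested genes were called, 21.2% rising and 17.0% falling. Of the 9765 tested genes with a mean of 100 or more normalised read counts, a range that holds 8 of the 10 genes and all 3 that fell, 24.0% rose and 28.2% fell. The gene for p53 itself and Mdm2, its negative regulator and target, stood at nearly the same level in both groups. Ccng1, Perp and Trp53inp1 fell to between 51.4% and 65.6% of their control means, and Phlda3 rose 4.09-fold. Gadd45a, Aen, Sesn1 and Zmat3 were not called. The median log2 change of the 10 genes was 0.02, and that of all tested genes was 0.03. All 10 passed the filter on low values (a mean of 0.5 or more over the 8 livers). In the 4 genes that were called the groups did not overlap, which held for 36.4% of all tested genes (19.4% higher and 16.9% lower). Whole liver RNA cannot tell fewer cells of a type from less RNA per cell.

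**Figure D1:**
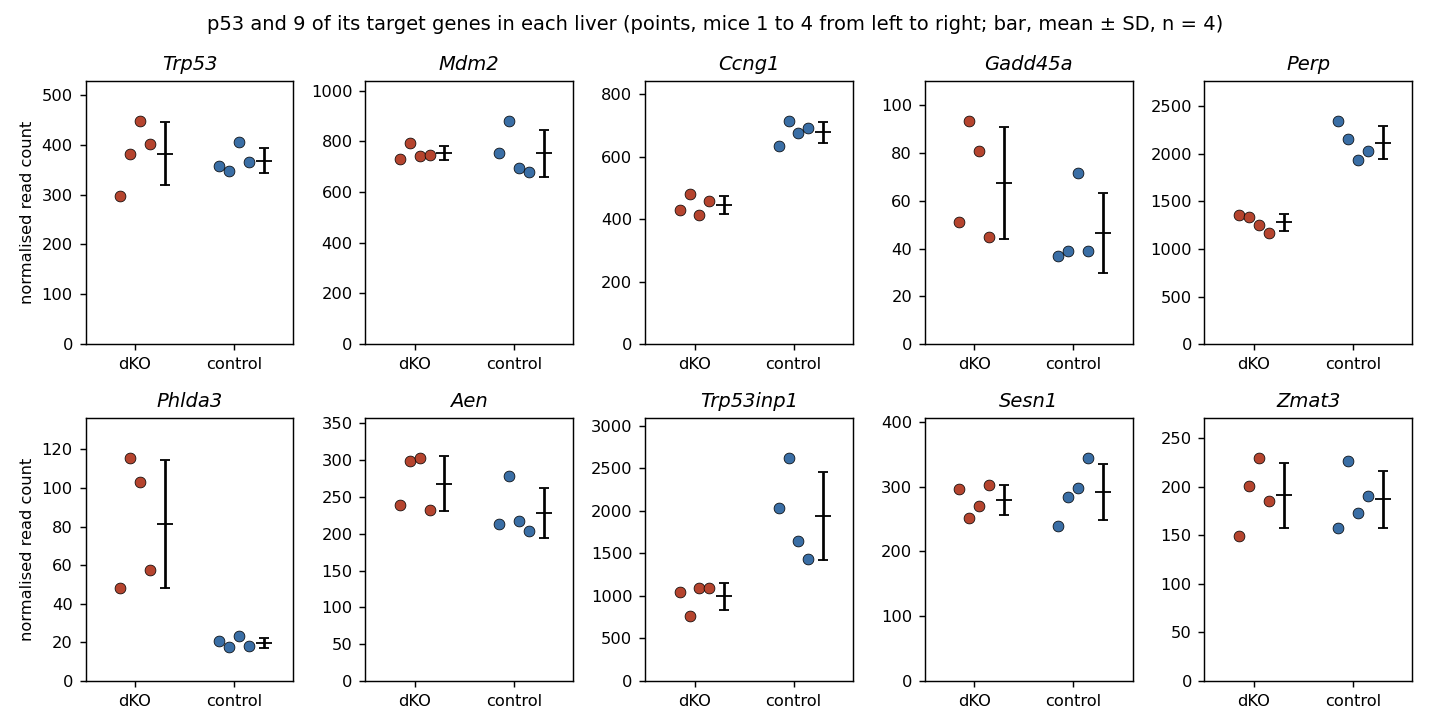
Normalised read counts (vertical axes, each from 0) of Trp53 and its 9 targets in the 4 dKO and 4 control livers; points are mice 1 to 4 from left to right and bars are mean ± SD. Ccng1, Perp and Trp53inp1 lie lower and Phlda3 higher in every dKO liver than in any control, while the other 6 genes overlap between the groups.

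Trp53 (ENSMUSG00000059552, chromosome 11, 69580359 to 69591873, plus strand) had 298, 382, 447 and 402 normalised read counts in dKO livers 1 to 4, against 356, 347, 405 and 365 in controls 1 to 4. The dKO livers held both the lowest and the highest value of the 8, so the groups overlapped. The means were 382 ± 62.6 in dKO livers and 368 ± 25.6 in controls (SD, n = 4 each). The log2 change was 0.04 (SE 0.12, 95% interval -0.22 to 0.30, limma adjusted p = 0.824), and the interval spans ratios of 0.857 to 1.23. A processed pseudogene, Trp53-ps, is annotated elsewhere in the genome, and how reads that match both were counted is not stated in the labels.

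Mdm2 (ENSMUSG00000020184, chromosome 10, 117688875 to 117710758, minus strand) had 731, 793, 743 and 747 normalised read counts in dKO livers, against 755, 879, 694 and 679 in controls. All dKO values lay within the range of the controls. Its means were 753 ± 27.4 in dKO livers and 752 ± 91.0 in controls, with a log2 change of 0.01 (SE 0.09, 95% interval -0.19 to 0.21, limma adjusted p = 0.947). This was the narrowest interval among the 6 genes not called, and it spans ratios of 0.879 to 1.15. The coefficient of variation of Mdm2 was 3.63% in dKO livers and 12.1% in controls.

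Ccng1 encodes cyclin G1, which recruits a phosphatase to MDM2 and so feeds back on p53. Ccng1 (ENSMUSG00000020326, chromosome 11, 40748552 to 40755311, minus strand) had 429, 480, 414 and 458 normalised read counts in dKO livers, against 634, 714, 676 and 692 in controls. Every dKO liver lay below every control, and both groups were tight, with coefficients of variation of 6.61% in dKO livers and 5.01% in controls. Ccng1 fell, to 65.6% of its mean in controls (log2 change -0.61, SE 0.08, limma adjusted p = 8.6e-05), and over 18 alternative settings its log2 change ran from -0.65 to -0.57. Its promoter window holds the match with the fewest mismatches to the p53 response element among the 7 genes searched, and its 3' UTR holds 1 heptamer.

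Gadd45a encodes a stress sensor that acts in growth arrest and DNA repair. Gadd45a (ENSMUSG00000036390, chromosome 6, 67035096 to 67037457, minus strand) had 51.3, 93.4, 80.9 and 44.7 normalised read counts in dKO livers, against 37.0, 39.0, 71.5 and 38.9 in controls. The dKO values fell into a high and a low pair, and control 3 lay above the lower dKO pair. The log2 change of 0.52 (SE 0.29, 95% interval -0.11 to 1.15, limma adjusted p = 0.182) did not pass the test, and it ran from 0.15 to 0.75 over the alternatives, in none of which the gene was called. Of the 1764 exon bases of Gadd45a, 337 are shared with the antisense transcript E230016M11Rik. That transcript stood at 19.7 ± 4.61 in dKO livers and 37.9 ± 13.3 in controls. It was called lower (limma adjusted p = 0.0473), and in 10 of 18 alternatives. The labels do not state whether counting used strand, so reads within the shared bases cannot be told apart.

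Genes of cell death and its control came next. Perp encodes a membrane protein of desmosomes that also takes part in p53-dependent apoptosis. Perp (ENSMUSG00000019851, chromosome 10, 18845020 to 18857073, plus strand) had 1360, 1336, 1252 and 1168 normalised read counts in dKO livers, against 2342, 2159, 1936 and 2030 in controls. The highest dKO liver lay well below the lowest control. Perp fell, to 60.4% of its mean in controls (log2 change -0.73, SE 0.08, limma adjusted p = 2.0e-05), the smallest adjusted p of the 10 genes.

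Phlda3 encodes a small lipid-binding protein that competes with the kinase AKT for the cell membrane. Phlda3 (ENSMUSG00000041801, chromosome 1, 135766119 to 135769136, plus strand) had 48.3, 116, 103 and 57.7 normalised read counts in dKO livers, against 20.5, 17.4, 23.1 and 18.3 in controls. All dKO values exceeded all controls, and the dKO livers parted into a lower pair (dKO 1 and dKO 4) and a higher pair (dKO 2 and dKO 3). The level was low, with 356 reads in the dKO livers together and 75 in the controls together. The means were 81.2 ± 33.1 in dKO livers and 19.9 ± 2.55 in controls, and the log2 change was 1.92 (SE 0.30, 95% interval 1.27 to 2.56, limma adjusted p = 0.000265). Over the alternatives the log2 change ran from 1.52 to 2.13, and the gene was called in all 18.

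Aen encodes an apoptosis-enhancing nuclease. Aen (ENSMUSG00000030609, chromosome 7, 78895854 to 78911209, plus strand) had 239, 299, 303 and 232 normalised read counts in dKO livers, against 214, 279, 218 and 204 in controls. Control 2 lay among the dKO values. The log2 change of 0.23 (SE 0.13, 95% interval -0.06 to 0.52, limma adjusted p = 0.200) did not pass the test and was positive in all 18 alternatives.

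Trp53inp1 encodes a nuclear protein that works with p53 in apoptosis and also takes part in autophagy. Trp53inp1 (ENSMUSG00000028211, chromosome 4, 11156431 to 11174379, plus strand) had 1045, 762, 1088 and 1091 normalised read counts in dKO livers, against 2039, 2623, 1650 and 1438 in controls. Every dKO liver lay below every control, although the controls themselves spread widely, with a coefficient of variation of 26.9%. Trp53inp1 fell, to 51.4% of its mean in controls (log2 change -0.94, SE 0.17, limma adjusted p = 0.000819), and its log2 change ran from -1.07 to -0.78 over the alternatives. Of the 10 genes it had the largest fall and the most heptamers, 2, in a 3' UTR of 4420 bases. That UTR is longer than those of 94.2% of the tested protein-coding genes, and a link between heptamers and change was not tested.

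The last genes act in metabolism and on RNA. Sesn1 encodes a sestrin, which restrains growth signalling through mTORC1. Sesn1 (ENSMUSG00000038332, chromosome 10, 41809935 to 41908424, plus strand) had 296, 251, 270 and 302 normalised read counts in dKO livers, against 239, 284, 298 and 344 in controls. All dKO values lay within the control range, and the log2 change was -0.05 (SE 0.12, 95% interval -0.31 to 0.21, limma adjusted p = 0.780).

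Zmat3 encodes a zinc finger protein that itself binds RNA. Zmat3 (ENSMUSG00000027663, chromosome 3, 32334792 to 32366014, minus strand) had 150, 201, 230 and 185 normalised read counts in dKO livers, against 158, 227, 174 and 191 in controls. The dKO livers held both the lowest and the highest value, and the log2 change was 0.03 (SE 0.15, 95% interval -0.31 to 0.36, limma adjusted p = 0.912).

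**Figure D2:**
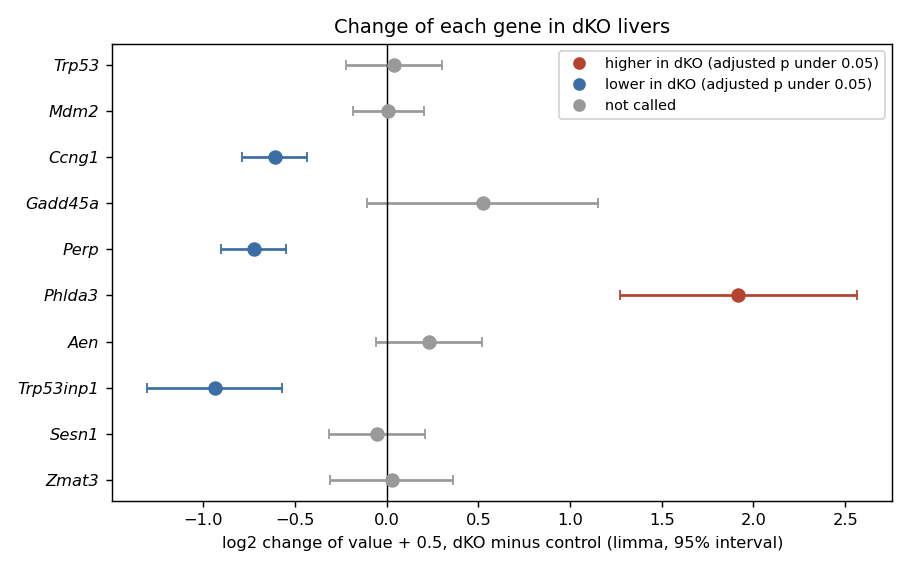
Log2 change of value + 0.5 (horizontal axis, dKO minus control) of each gene with its 95% interval from limma, n = 4 per group. The intervals of Ccng1, Perp and Trp53inp1 lie below 0 and that of Phlda3 above 1, while those of Trp53, Mdm2, Sesn1 and Zmat3 are centred near 0 and those of Gadd45a and Aen reach below it.

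Ccng1, Perp, Phlda3 and Trp53inp1 each had p = 0.0286 in an exact permutation test (2-sided), the smallest value that 70 assignments of 8 livers allow. Every gene whose groups do not overlap receives this value, so it repeats the separation given above, found in 36.4% of all tested genes. For the other 6 genes the exact permutation p lay between 0.171 and 1.0. None of the 18 alternatives changed the call of any of the 10 genes.

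Levels can be compared between genes only per length, so reads were divided by annotated exon length and scaled to a fixed total per library (TPM). TPM is scaled otherwise than the normalised read counts, so it serves here for the order within a group and not for changes between groups. Sesn1, for example, averaged 10.7 TPM in dKO livers and 10.2 in controls, but 280 and 291 normalised read counts. In dKO livers Perp was highest at 100.1 ± 6.89 TPM, followed by Trp53inp1 at 23.5 ± 3.99, Mdm2 at 22.7 ± 1.41, Ccng1 at 19.4 ± 1.30, Trp53 at 14.5 ± 2.97, Sesn1 at 10.7 ± 0.740, Phlda3 at 8.04 ± 3.50, Aen at 7.10 ± 1.28, Gadd45a at 5.90 ± 2.19 and Zmat3 at 2.57 ± 0.563 TPM (SD, n = 4 each). In controls the order was Perp at 151 ± 13.2 TPM, Trp53inp1 at 41.5 ± 10.8, Ccng1 at 26.8 ± 1.27, Mdm2 at 20.5 ± 2.31, Trp53 at 12.6 ± 0.838, Sesn1 at 10.2 ± 1.58, Aen at 5.46 ± 0.756, Gadd45a at 3.66 ± 1.27, Zmat3 at 2.27 ± 0.344 and Phlda3 at 1.77 ± 0.219 TPM. Phlda3 was thus the lowest of the 10 in controls and stood among Sesn1, Aen and Gadd45a in dKO livers. In dKO livers the TPM ranges of Perp and Zmat3 met no other, while each gene between them overlapped at least 1 neighbour. In controls the ranges of Trp53 and Sesn1, of Aen and Gadd45a, and of Zmat3 and Phlda3 overlapped, and the other neighbours in the order did not.

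**Figure D3:**
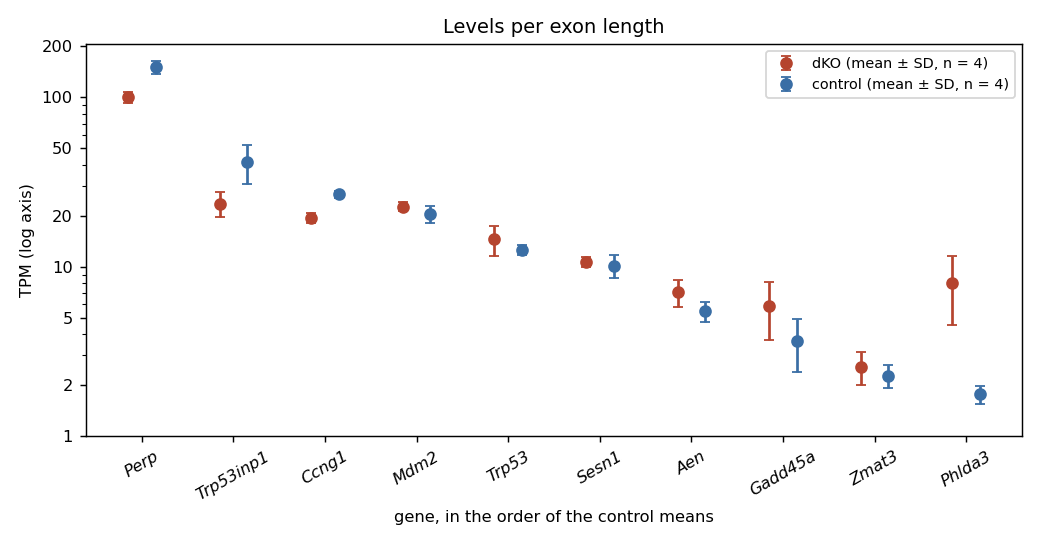
Mean TPM ± SD (vertical log axis) of the 10 genes in dKO and control livers, n = 4 per group, in the order of the control means. Perp is highest in both groups, at 100.1 TPM in dKO livers and 151 TPM in controls, and Phlda3 leaves the lowest place in dKO livers. TPM is scaled otherwise than the normalised read counts, on which changes between groups were tested.

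Within a group, the order of the mice differed between genes. Phlda3, Gadd45a, Aen and Zmat3 had their 2 highest dKO values in dKO 2 and dKO 3, an arrangement found in 14.9% of the 20055 tested genes and noticed after the values were seen. In Phlda3 these livers deviated by 0.60 and 0.44 on the log2 scale from the dKO mean, against -0.65 in dKO 1 and -0.39 in dKO 4. Gadd45a gave 0.53 and 0.32 in dKO 2 and dKO 3, against -0.33 in dKO 1 and -0.53 in dKO 4. The summed Kupffer cell markers were lower in dKO 2 and dKO 3, at 6323 and 6108 normalised read counts, than in dKO 1 and dKO 4, at 10343 and 11272. Neutrophil marker sums were higher in dKO 2 and dKO 3 (1012 and 779) than in dKO 1 and dKO 4 (723 and 715). So were bile duct sums (12529 and 10623 against 8213 and 9814) and stellate cell and fibroblast sums (31329 and 30711 against 23217 and 29567). T and NK cell sums were lower in dKO 2 and dKO 3 (73.0 and 76.6 against 79.4 and 85.7). The hepatocyte, monocyte, endothelial and B cell sums did not part the livers this way. The part of these cells in the arrangement was not tested. Trp53inp1 deviated from the dKO mean most in dKO 2, at -0.37 on the log2 scale, and Trp53 was lowest in dKO 1, at -0.34. Among the controls, control 2 held the highest value of 5 of the 10 genes (Mdm2, Ccng1, Aen, Trp53inp1 and Zmat3), and control 4 that of Sesn1 alone.

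**Figure D4:**
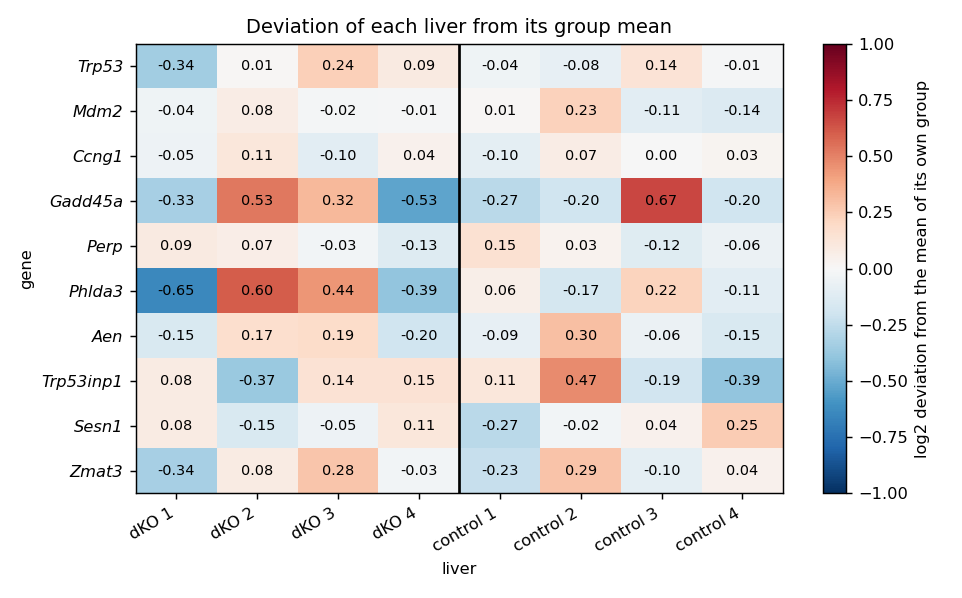
Log2 deviation of each liver (columns) from the mean of its own group for each gene (rows), with 0 as the group mean. Phlda3 and Gadd45a vary most among dKO livers, both with dKO 2 and dKO 3 above the group mean, and Mdm2 and Ccng1 vary least among them.

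By the root mean square difference of centred log2 values over the 8 livers, the genes most like Trp53 among 9281 candidates were Sf3b3, Ccdc186, Eif1a, Urb1 and Unk (0.07 to 0.08). Those most like Mdm2 were Ppp1r2, Tcp1, Mtdh, Ppp2r2a and Hdhd2 (0.05).

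A further 50 p53 targets were listed beside the 10 genes. Of the 48 tested, 20 rose, 10 fell and 18 did neither, with a median log2 change of 0.17 (all tested genes 0.03, with 21.2% rising and 17.0% falling). Of these, 16 that rose and 7 that fell were called in every alternative that gave a value. The calls of Polk, Fdxr, Ckap2, Cyfip2, Ephx1, Gls2 and Trim32 were each lost in at least 1. Of 18 alternatives, Trim32 was called in 7, Polk in 9, Ckap2 and Gls2 in 10, Fdxr in 13, and Cyfip2 and Ephx1 in 17. The list was grouped by role after the values had been seen, and genes that complete a small count are named for that reason.

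Targets placed under growth arrest and cell cycle checkpoints formed the group with the most rises, 8 of 12 tested, with none falling. The share rising among all tested genes was 21.2%. This grouping does not separate genes that arrest the cycle from genes that act in it. Cdkn1a encodes p21, the cyclin-dependent kinase inhibitor through which p53 arrests the cell cycle. It had 169, 329, 292 and 316 normalised read counts in dKO livers, against 144, 97.5, 119 and 120 in controls. Every dKO liver exceeded every control, dKO 1 least, and Cdkn1a rose 2.30-fold (log2 change 1.17, SE 0.20, limma adjusted p = 0.000581). Btg2, an antiproliferative gene, averaged 1722 ± 368 in dKO livers and 216 ± 101 in controls (log2 change 3.09, SE 0.27, limma adjusted p = 3.2e-06). Ier5, an early response gene, averaged 360 ± 87.8 in dKO livers and 140 ± 33.4 in controls (log2 change 1.36). Plk2, Plk3, Gtse1, Psrc1 and Ckap2 also rose, with log2 changes of 0.96 to 2.08. The largest of these changes, that of Ckap2, was also the least certain (SE 0.75, limma adjusted p = 0.0436). Ckap2 was called in 10 of 18 alternatives, whereas Plk2, Plk3 and Gtse1 were called in all 18. Psrc1 was called in all 17 that gave a value, but had only 55 reads in the dKO livers together and 15 in the controls together. Ppm1d, Fbxw7, Pml and Rbm38 were not called.

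Death genes went both ways, with 5 of 12 rising, 3 falling and 4 doing neither. Over all tested genes 21.2% rose and 17.0% fell. Apaf1, the scaffold of the apoptosome, had 144, 187, 196 and 233 normalised read counts in dKO livers, against 84.2, 54.4, 60.0 and 72.1 in controls. The groups were apart, and Apaf1 rose 2.81-fold (log2 change 1.48, SE 0.18, limma adjusted p = 4.8e-05). The death receptor gene Tnfrsf10b, the BH3-only gene Pmaip1, Dram1 and Cyfip2 rose by 0.94 to 2.78 on the log2 scale. Tnfrsf10b, with the largest of these changes, had 218 reads in the dKO livers together and 30 in the controls together. Pmaip1 had 270 and 65. Ei24, which encodes a membrane protein of the endoplasmic reticulum that acts in autophagy, had the smallest adjusted p of the list and averaged 2170 ± 167 in dKO livers and 4171 ± 265 in controls (log2 change -0.94, SE 0.08, limma adjusted p = 1.8e-06). Bbc3, which encodes the BH3-only protein PUMA, had 123, 109, 125 and 143 normalised read counts in dKO livers, against 179, 167, 367 and 255 in controls. All dKO values lay below all controls, and Bbc3 fell by 0.88 on the log2 scale (SE 0.22, limma adjusted p = 0.00608), as did Pidd1 by 0.72. Bax, the effector of mitochondrial permeabilisation, averaged 404 ± 28.6 in dKO livers and 342 ± 29.3 in controls. Its groups did not overlap, but its limma adjusted p of 0.0638 missed the threshold and ran from 0.0428 with edgeR to 0.170 over the alternatives.

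Targets of metabolism and redox were split, with 5 rising, 5 falling and 3 of 13 doing neither. For all tested genes the shares were 21.2% rising and 17.0% falling. Ddit4, an inhibitor of mTORC1 signalling that glucocorticoids and low oxygen also induce, averaged 955 ± 172 in dKO livers and 294 ± 57.7 in controls (log2 change 1.71, SE 0.15, limma adjusted p = 3.7e-06). The adenylate kinase gene Ak1 rose by 3.20 on the log2 scale, with 249 reads in the dKO livers together and 26 in the controls together. Slc19a2, a thiamine transporter gene, averaged 1385 ± 179 in dKO livers and 2647 ± 105 in controls (log2 change -0.94, SE 0.09, limma adjusted p = 7.2e-06). Sesn2, the stress-induced relative of Sesn1, stood at 203 ± 36.0 in dKO livers and 206 ± 27.7 in controls (limma adjusted p = 0.904). Of 5 DNA repair and nucleotide supply genes, Polk rose and Xpc, Ercc5, Ddb2 and Rrm2b were not called. Polk and Xpc lay near the threshold, with limma adjusted p of 0.0460 and 0.0583. Polk was called in 9 of 18 alternatives, and Xpc in 6, as lower. Of 6 targets with other roles, the receptor gene Epha2 rose by 0.93 on the log2 scale, Rps27l and Trim32 fell by 0.48 and 0.31, and Gdf15, Tap1 and Zfp365 were not called.

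**Figure D5:**
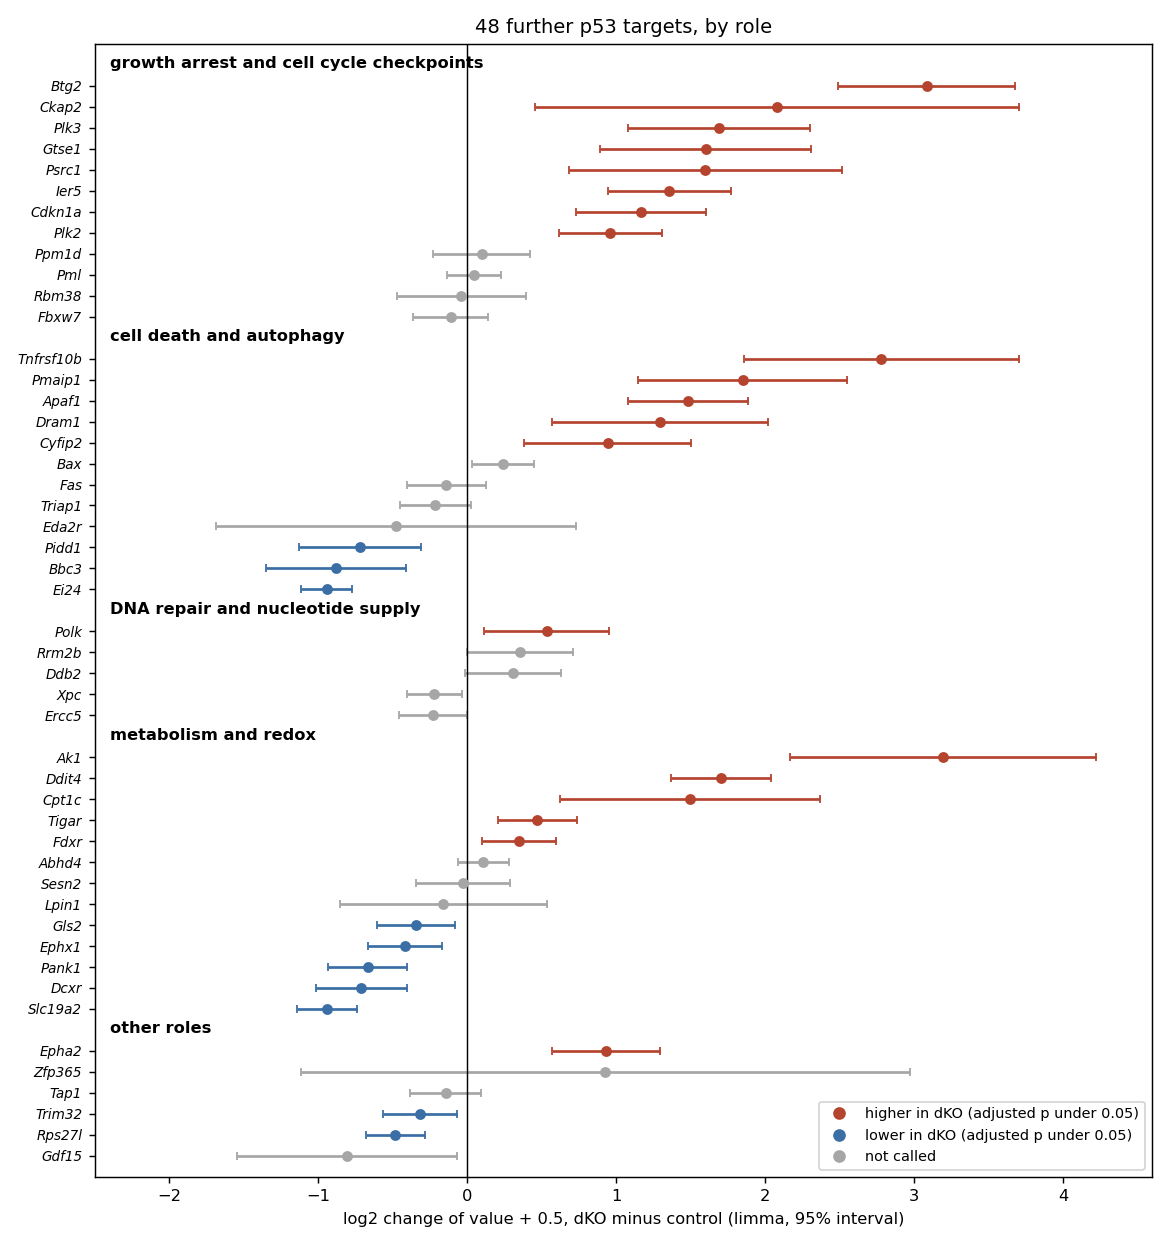
Log2 change of value + 0.5 (horizontal axis, dKO minus control) with 95% intervals from limma for 48 further p53 targets, grouped by role and ordered by change within each group. Targets placed under growth arrest and cell cycle checkpoints rose or were not called, and those of cell death and metabolism lie on both sides of 0.

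Regulators of p53 were examined next. Of 28 tested, 5 rose, 7 fell and 16 did neither, or 4 and 11 with quantile normalization, and 4 fell without control 1. Over all tested genes 21.2% rose and 17.0% fell, and with quantile normalization 3638 rose and 4312 fell, against 4244 and 3410 without it. Mdm4, the relative of Mdm2 that blocks p53 activity, stood at 1026 ± 128 in dKO livers and 1069 ± 21.2 in controls (limma adjusted p = 0.589). Usp7, which removes ubiquitin from p53 and MDM2, averaged 1015 ± 51.4 in dKO livers and 1477 ± 77.6 in controls (log2 change -0.54, SE 0.07, limma adjusted p = 8.0e-05). Rchy1, a ubiquitin ligase gene and itself a p53 target, fell by 0.45 on the log2 scale. Trim24, another ubiquitin ligase gene of p53, averaged 865 ± 118 in dKO livers and 368 ± 67.8 in controls (log2 change 1.24, SE 0.14, limma adjusted p = 2.0e-05), and Akt1 rose by 0.60 on the log2 scale. Trp53bp2, whose product steers p53 towards apoptotic targets, averaged 518 ± 36.1 in dKO livers and 395 ± 27.3 in controls (limma adjusted p = 0.00377). Cdkn2a, which encodes the MDM2 inhibitor ARF beside a cyclin-dependent kinase inhibitor, had 47 reads in the dKO livers together and 4 in the controls together and was called higher (limma adjusted p = 0.00356). Wrap53, the neighbour of Trp53, stood at 110 ± 18.9 in dKO livers and 137 ± 22.2 in controls. Its limma adjusted p of 0.170 ran from 0.026 with quantile normalization to 0.384 over the alternatives.

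Of 11 tested relatives of the 10 genes, 3 rose and 2 fell, while 21.2% of all tested genes rose and 17.0% fell. Trp53inp2 averaged 3110 ± 352 in dKO livers and 5166 ± 500 in controls (log2 change -0.73, SE 0.10, limma adjusted p = 9.0e-05), a fall like that of Trp53inp1. Phlda2, an imprinted relative of Phlda3, had 85.5, 127, 51.1 and 61.5 normalised read counts in dKO livers, against 2.05, 0, 2.10 and 0 in controls. It rose (limma adjusted p = 1.1e-05), with 348 reads in the dKO livers together and 4 in the controls together. Gadd45g had 865, 1003, 886 and 746 in dKO livers, against 239, 215, 191 and 1049 in controls, so control 4 lay above every dKO liver. Gadd45g was called higher (log2 change 1.45, SE 0.41, limma adjusted p = 0.0143), and by 2.02 on the log2 scale without control 4. The call was lost in 6 of the 17 alternatives that gave a value, with adjusted p up to 0.0957. Gadd45b stood at 85.4 ± 32.1 in dKO livers and 77.9 ± 38.5 in controls (limma adjusted p = 0.721). Sesn3 averaged 91.0 ± 10.4 in dKO livers and 133 ± 38.9 in controls, with a limma adjusted p of 0.0970 that ran from 0.00405 without control 1 to 0.258 over the alternatives. Ccng2 averaged 324 ± 40.3 in dKO livers and 377 ± 36.8 in controls (limma adjusted p = 0.142). The relatives of Aen were called in opposite directions, Isg20 higher by 0.98 and Isg20l2 lower by 0.34 on the log2 scale, calls lost in 1 and 2 alternatives. Trp63, of the p53 family, had 3 reads in the dKO livers together and 7 in the controls together, at or under 3 reads in every liver.

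Active p53 lowers many cell cycle genes through p21 and the DREAM repressor complex. Of 24 such genes 22 rose, 0 fell and 2 (Kif23 and Nusap1) did neither, with a median log2 change of 1.74, while 21.2% of all tested genes rose. Mki67, a marker of cycling cells, had 316, 332, 261 and 269 normalised read counts in dKO livers, against 78.0, 85.2, 60.0 and 120 in controls. The groups were far apart, with control 4 the highest control, and Mki67 rose 3.43-fold (log2 change 1.81, SE 0.19, limma adjusted p = 1.1e-05). Rrm2, a subunit of ribonucleotide reductase, averaged 223 ± 31.7 in dKO livers and 84.2 ± 8.66 in controls (log2 change 1.39). Cdk1, Ccna2, Cenpf and Mcm5 rose by 1.83, 1.88, 2.43 and 1.27 on the log2 scale. Cdkn1a thus rose in the same livers as the genes that its product is known to lower, and whole liver does not show whether the same cells held both. Without control 4, 23 of these genes rose, as did 18 of the further p53 targets with 10 falling, and the counts among the 10 genes stayed at 1 and 3.

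Markers of several cell types also differed between the groups, and the counts of each list stand beside the 21.2% of all tested genes that rose and the 17.0% that fell. Of 9 markers of monocytes and recruited macrophages all rose, and their summed level ran from 8037 to 11867 normalised read counts in dKO livers and from 1539 to 5783 in controls. All 8 neutrophil markers rose (summed level 715 to 1012 in dKO livers, 80.1 to 359 in controls), with Ly6g and Ltf at 0 in every control, as did all 6 bile duct markers (8213 to 12529 in dKO livers, 652 to 1553 in controls). Of 8 stellate cell and fibroblast markers 5 rose (23217 to 31329 in dKO livers, 4179 to 13373 in controls), as did 3 of 6 Kupffer cell markers (6108 to 11272 in dKO livers, 4926 to 6104 in controls). Of 6 endothelial markers 2 rose and 1 fell (4758 to 6212 in dKO livers, 4173 to 5058 in controls), 1 of 6 T and NK cell markers rose (73.0 to 85.7 in dKO livers, 35.8 to 51.3 in controls) and 3 of 5 B cell markers fell (123 to 174 in dKO livers, 125 to 237 in controls). Of 8 hepatocyte markers 1 rose and 3 fell, and their summed level was 1146331 to 1252030 in dKO livers and 1117926 to 1278743 in controls. Control 4 held the highest control sum of the monocyte, neutrophil, stellate, bile duct, hepatocyte and B cell lists. The part of these cells in the rise of Phlda3, Cdkn1a and the cell cycle genes, or in the fall of Ccng1, Perp and Trp53inp1, was not tested.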

How the data were processed

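The genome build was mm10, and featureCounts 1.5.0-p3, HISAT2 2.0.5, DESeq2 and fastp are the tools listed, per the submitters' processing notes, which assign them no role here. Annotation, strand setting and filters: not given in the sources used here. The deposited values are a signal per gene and library: every value is a whole multiple (within 0.001) of 1 step per library, so they are read counts that the authors divided by a size factor, although the table is named for FPKM. Dividing by the step recovered the reads, and a count of 3 reads corresponds to 2.55 to 3.43 normalised counts.

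Genes with a mean of 0.5 or more were tested as log2(value + 0.5) with limma 3.58.1 in R 4.3.3 (trended variances, Benjamini-Hochberg over 20055 genes), after a test on simulated data. edgeR 4.0.16 and DESeq2 1.42.0 on recovered reads, other pseudocounts, filters and scalings, robust variances, a replicate block and leaving out each liver were alternatives. The labels number the mice, so replicates are animals.

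The members and lists were chosen with earlier results of these data known. Named were the 10 members, the deleted genes, up to 6 called genes of smallest adjusted p per list, 14 genes fixed by symbol and the genes nearest Trp53 and Mdm2 in pattern. Lists held 50 further p53 targets, 28 regulators, 24 cell cycle genes, 12 relatives and the p53 family, besides cell type markers. Rprm, Sco2, Trp73 and Zmat4 were not analysed here. Exon lengths and 3' UTRs came from GENCODE M21, and promoter windows from RefSeq.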

Additional observations from a re-analysis of the deposited data

Results flagged for a closer look

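In 7 of 90 groups of 4 livers (45 genes), 1 liver stood apart from the other 3, where chance flags about 1 group in 20. Of the p53 genes, Trp53inp1 in dKO 2 was low at 762 normalised read counts (other dKO livers 1045 to 1091), and Gadd45a in control 3 was high at 71.5 (other controls 37.0 to 39.0). Zfp36l1 in dKO 4 stood at 267 (other dKO livers 209 to 214), and Zfp36l2 in control 3 at 997 (other controls 1722 to 1820). Control 4 was high for Ier5 at 190 (others 121 to 124) and for Gadd45g at 1049 (others 191 to 239). Trp63 in dKO 3 stood at 2.55, which is 3 reads, with 0 in the other dKO livers, so that any value above 0 would be flagged.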

How the results depend on the processing

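Of 180 values of the 10 genes under 18 alternatives, 169 kept their direction and call. The other 11 changed sign in 4 genes that were not called in any setting: Mdm2 gave -0.00496 with TMM scaling and Zmat3 -0.12 with quantile normalization. Leaving out 1 liver at a time gave log2 changes of -0.0397 to 0.156 for Trp53, -0.0364 to 0.0875 for Mdm2, -0.141 to 0.0336 for Sesn1, -0.0667 to 0.139 for Zmat3, -0.0341 to 0.463 for Gadd45b and -0.139 to 0.0516 for Sesn2. Gadd45b gave -0.13 with quantile normalization, which shifted the median of all genes by -0.11 and gave 3638 higher and 4312 lower genes (4244 and 3410 otherwise). Regulators that fell numbered 11 with quantile normalization, and 4 to 8 when livers were left out, with 4 without control 1. ATTTA in place of TATTTAT gave 8 genes, and 1 mismatch gave 1 gene with a p53 element. The cause was not tested. With the replicate block, 4021 genes were higher and 3112 lower, and the 10 genes kept counts of 1 and 3. Same-numbered livers did not deviate together (r = -0.07 to 0.08), although 3 of 4 dKO livers and 2 of 4 controls correlated best with their own number. A p53 element search beyond the promoter windows was not run. Low read numbers limit the precision for Phlda3, Gadd45a, Cdkn2a, Trp63, Phlda2, Ak1, Tnfrsf10b, Pmaip1 and Psrc1, among others.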
